A study of Mus musculus with 54 samples.

Results

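The genes described here are 10 enzymes and helper proteins of the prostanoid and lipoxygenase pathways, chosen by their symbols out of 39179 gene identifiers counted in every library. Ordered by role they are Pla2g4a, Ptgs1, Ptgs2, Ptges, Tbxas1, Hpgds, Alox5, Alox5ap, Ltc4s and Alox15. All 10 were found, and all 10 passed the filter on low counts in both experiments. The strongest pattern was an opposition between the cyclooxygenases: macrophages given LPS and IFNγ for 24 h carried Ptgs2 at 4402 ± 500 CPM (the count scaled to library size; mean ± SD, n = 3 mice) and Ptgs1 at 1.32 ± 0.30 CPM, whereas macrophages given IL4 carried Ptgs2 at 1.61 ± 0.68 CPM and Ptgs1 at 82.7 ± 2.2 CPM.

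Cytosolic phospholipase A2 (Pla2g4a) releases arachidonic acid from membrane phospholipids. Cyclooxygenases turn it into prostaglandin H2, from which terminal synthases make prostaglandin E2, thromboxane A2 or prostaglandin D2, while lipoxygenases turn the same fatty acid into leukotrienes and other hydroxylated products. Macrophages are a classical source of these lipid mediators, which act on fever, pain, blood vessels and the recruitment or clearance of leukocytes.

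The libraries came from peritoneal exudate cells of C57BL/6 mice aged 8 to 20 weeks, collected 4 days after an injection of 3% thioglycolate. In the 24 h experiment cells of 3 mice were left unpolarized (M0) or polarized over 24 h, either by LPS (100 ng/ml) together with IFNγ (50 ng/ml), called M1-like, or by IL4 (10 ng/ml), called M2-like, and each of the 9 RNAs was sequenced as 2 technical libraries of single 50 nt reads, which were summed. In the reprogramming experiment 12 conditions with 3 libraries each were read as 150 nt pairs: untransfected M0, M1-like and M2-like cells, the same states given the transfection reagent alone (mock), and M2-like cells given a negative siRNA pool, a pool against E2f1, Myc, Pparg or Stat6, or all 4 pools combined. RNA was taken 48 h after transfection, IL4 was left out of the medium after transfection, whereas the methods give 24 h of polarization for profiles of cells without transfection and do not say whether that covers the untransfected cells of this experiment. The methods call the 3 replicates of the M0, M1-like, M2-like and reprogrammed cells biological, but the labels do not tie the reprogramming libraries to mice, so p-values there measure the spread between these libraries.

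The libraries held 13421854 to 29880494 counted reads. Genes that mark macrophages (7 genes, summed) stood at 6208 to 18311 CPM in all conditions, 5 LPS and IFNγ response genes at 14542 to 17716 CPM in the 24 h M1-like mice against 8.43 to 14.2 CPM in the others, and 6 IL4 response genes at 6030.2 to 7675 CPM in the 24 h M2-like mice against 127 to 311 CPM in the others. Each siRNA target stood at 19.2 to 44.2% of its negative-pool mean in the libraries of its own pool and at 25.7 to 62.7% in those of the combined pool. The summed markers of mast cells, neutrophils, platelets and T cells reached at most 9.86 CPM in any library. In the reprogramming experiment 5 eosinophil markers summed to 0.610 to 46.3 CPM and 4 B cell markers to 0.549 to 28.2 CPM, and at 24 h they reached at most 19.1 and 9.24 CPM. The markers of fibroblasts and mesothelium were at 2.76 to 19.1 CPM at 24 h and at 10.3 to 275 CPM in the reprogramming experiment. At 24 h they were at 2.76 to 4.41 CPM in M1-like and 9.95 to 13.4 CPM in M2-like cells. In mock they were at 10.3 to 23.5 and 99.3 to 167 CPM. B cell markers were at 0.815 to 1.82 CPM in M1-like mock and 5.09 to 9.39 CPM in M2-like mock, but overlapped between these states at 24 h. The part of these cells in the results was not tested. In these bulk samples fewer cells of a type and less RNA per cell cannot be told apart.

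Of the 10 genes, 8 had a promoter window in the RefSeq table (build GRCm38.p6), and the 250 bases before the transcription start are shown for the cyclooxygenases and for the prostaglandin E synthase gene Ptges, whose RNAs moved most between the polarized states. Ptgs2 lies on chromosome 1 from 150100031 to 150108227 on the plus strand (GRCm38). Its partner Pla2g4a (chr1:149829618-149961290, minus strand) starts 138.7 kb upstream and runs away from Ptgs2. The noncoding Ptgs2os starts 67 bases upstream on the opposite strand, so the printed window runs into it. Ptgs1 lies on chromosome 2 from 36230426 to 36252272 on the plus strand, and Ptges on chromosome 2 from 30889471 to 30929863 on the minus strand, with the RefSeq start 26566 bases inside the gene model of GENCODE M21. Capitals mark every match to the motifs that were searched on both strands.
Ptgs2, chr1:150099781-150100030, plus strand: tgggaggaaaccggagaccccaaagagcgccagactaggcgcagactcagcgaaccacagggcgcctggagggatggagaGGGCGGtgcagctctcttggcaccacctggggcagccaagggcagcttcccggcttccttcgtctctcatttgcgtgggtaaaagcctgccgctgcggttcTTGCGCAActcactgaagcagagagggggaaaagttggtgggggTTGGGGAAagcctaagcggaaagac
Ptgs1, chr2:36230176-36230425, plus strand: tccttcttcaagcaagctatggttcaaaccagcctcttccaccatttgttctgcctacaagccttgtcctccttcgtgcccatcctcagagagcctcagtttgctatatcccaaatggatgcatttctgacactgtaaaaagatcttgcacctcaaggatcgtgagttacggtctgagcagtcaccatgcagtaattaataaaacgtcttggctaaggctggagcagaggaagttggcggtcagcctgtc
Ptges, chr2:30903298-30903547, minus strand: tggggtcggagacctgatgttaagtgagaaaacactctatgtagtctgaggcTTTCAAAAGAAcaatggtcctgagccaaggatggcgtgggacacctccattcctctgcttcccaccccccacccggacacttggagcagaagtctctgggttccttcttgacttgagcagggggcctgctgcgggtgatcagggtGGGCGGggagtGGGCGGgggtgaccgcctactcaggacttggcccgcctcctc

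The 11 motifs searched were the cyclic AMP response element TGACGTCA and its core CGTCA (which lies inside it), the E-box CACGTG, the GC box GGGCGG, the TATA box TATAAA, the CCAAT box, the interferon-activated sequence TTCNNNGAA, the STAT6 form (the same with 4 free letters), the C/EBP form TTNNGNAA, the EGR1 form GCGGGGGCG and the κB site. The Ptgs2 window held a GC box from -170 to -165 and C/EBP matches from -69 to -62 and from -25 to -18, counted from the start. The Ptges window held GC boxes from -53 to -48 and from -42 to -37 and a STAT6-form match from -197 to -188 that overlaps a C/EBP match. The Ptgs1 window held no match to these letters. Among 32536 distinct windows of this length in the table, 33.0% held a GC box, 36.8% a C/EBP match and 5.9% a STAT6-form match. GC boxes and C/EBP matches are thus common, the STAT6 form is less so, and all matches are given as a description. None of the 3 windows held a κB match (7.3% of all windows), an E-box (6.0%), a TATA box (12.3%), a CCAAT box (33.8%), the cyclic AMP response element (1.6%) or its core (17.9%), the interferon-activated sequence (7.0%) or the EGR1 form (2.6%). Bases further upstream or after the start used were not searched, so these absences hold for the printed windows only.

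At 24 h all 10 genes differed between M1-like and M0 macrophages at an adjusted p below 0.05 (edgeR's quasi-likelihood test, Benjamini-Hochberg adjusted over all 16110 genes tested), 3 higher and 7 lower, beside 72.9% of all genes called. All 10 also differed between M1-like and M2-like cells, again 3 higher and 7 lower in M1-like, beside 72.6% of all genes. Between M2-like and M0 cells 6 of the 10 were called, 3 in each direction, beside 27.9% of all genes. The median log2 fold change of the 10 genes was -1.90 in M1-like against M0 and -0.25 in M2-like against M0, where the medians over all genes were -0.04 and 0.00. Both polarized states were compared with the same M0 libraries.

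**Figure D1:**
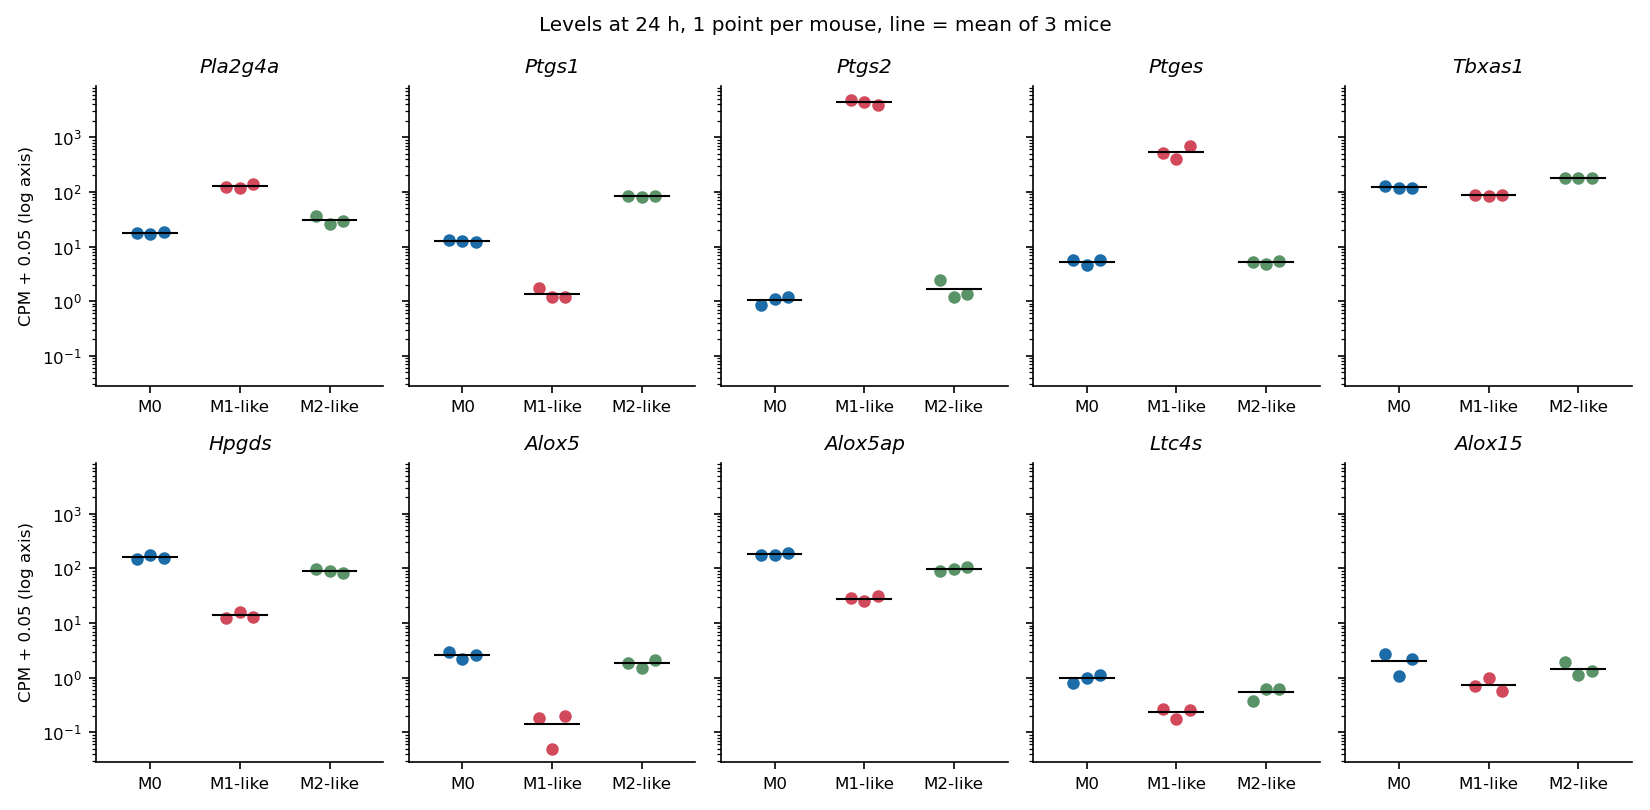
Level of each gene at 24 h in CPM + 0.05 on a log axis, 1 point per mouse and a line at the mean of 3 mice, for M0, M1-like (LPS and IFNγ) and M2-like (IL4) macrophages. Ptgs2 rises to 4402 CPM and Ptges to 536 CPM in M1-like cells, while Ptgs1 is lowest there and highest in M2-like cells at 82.7 CPM.

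Pla2g4a and Ptgs2 RNA both rose in M1-like cells. Pla2g4a stood at 18.0, 17.3 and 18.7 CPM in the M0 cells of mice 1 to 3, at 123.1, 120.3 and 138.1 CPM in their M1-like cells and at 36.6, 26.3 and 29.35 CPM in their M2-like cells. The 3 groups did not overlap, and Pla2g4a rose both with LPS and IFNγ (log2 fold change 2.82 ± 0.11 SE, adjusted p = 3.05e-10, edgeR) and with IL4 (0.77 ± 0.11, adjusted p = 0.000321). Ptgs2, the cyclooxygenase known for its induction by inflammatory signals, stood at 0.80, 1.06 and 1.14 CPM in M0, at 4893, 4419 and 3894 CPM in M1-like and at 2.38, 1.13 and 1.31 CPM in M2-like cells. Its M1-like level was about 4373 times that of M0 (log2 fold change 12.09 ± 0.27, adjusted p = 2.74e-12, edgeR). M2-like against M0 gave 0.65 ± 0.26 (adjusted p = 0.0813), with overlapping mice and a call without the M2-like cells of mouse 2 (0.85, adjusted p = 0.0291).

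The noncoding neighbours of Ptgs2 were also highest in M1-like cells, at far lower levels, and were near 0 in M0 and M2-like cells. Ptgs2os stood at 4.64 ± 0.23 CPM in M1-like against 0.013 ± 0.023 CPM in M0 cells, and Ptgs2os2, a transcript 50815 bases beyond the Ptgs2 end, at 25.6 ± 0.8 against 0.025 ± 0.010 CPM. Both rose in M1-like against M2-like cells, by 9.01 ± 0.42 and 9.28 ± 0.24 on the log2 scale (adjusted p = 1.69e-09 and 7.19e-12, edgeR). Neither gene model overlaps Ptgs2, and the strand setting of the counting is not given in the sources used here.

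The constitutive cyclooxygenase Ptgs1 moved the other way. It stood at 13.2, 12.7 and 12.3 CPM in M0, at 1.675, 1.15 and 1.14 CPM in M1-like and at 84.35, 80.25 and 83.6 CPM in M2-like cells, without overlap between groups. It fell with LPS and IFNγ (log2 fold change -3.28 ± 0.11, adjusted p = 9.87e-11, edgeR) and rose with IL4 (2.70 ± 0.09, adjusted p = 3.14e-09), so that M1-like and M2-like cells differed by -5.98 ± 0.11 on the log2 scale (adjusted p = 6.64e-13). Per kilobase of exon, the scale on which genes can be compared, Ptgs2 stood at 961 CPM per kb and Ptgs1 at 0.341 CPM per kb in M1-like cells, a ratio of 2820. In M0 the ratio of Ptgs2 to Ptgs1 was 0.0666 and in M2-like cells 0.0165.

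Of the terminal synthases, Ptges rose and Hpgds and Tbxas1 fell in M1-like against M0 cells. Ptges, the microsomal prostaglandin E synthase, stood at 5.64, 4.47 and 5.51 CPM in M0, at 518, 409 and 683 CPM in M1-like and at 5.14, 4.805 and 5.37 CPM in M2-like cells. Only the M1-like cells stood apart (log2 fold change against M0 6.69 ± 0.19, adjusted p = 1.89e-11, edgeR), and M2-like against M0 gave -0.03 ± 0.18 (adjusted p = 0.924). Hpgds, the hematopoietic prostaglandin D synthase, stood at 151.6, 175.5 and 157.2 CPM in M0, at 12.3, 16.2 and 13.1 CPM in M1-like and at 98.5, 91.1 and 82.9 CPM in M2-like cells. It was highest in M0 in every mouse and fell with LPS and IFNγ by 3.54 ± 0.11 and with IL4 by 0.83 ± 0.10 on the log2 scale (adjusted p = 3.73e-11 and 9.3e-05, edgeR).

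Tbxas1, the thromboxane A synthase, changed least in M1-like against M0 among the genes above 10 CPM in every mouse. It stood at 127.1, 119.5 and 117.7 CPM in M0, at 89.7, 85.7 and 86.4 CPM in M1-like and at 180.7, 181.9 and 181.6 CPM in M2-like cells. The groups did not overlap, with log2 fold changes of -0.48 ± 0.05 in M1-like and 0.58 ± 0.05 in M2-like against M0 (adjusted p = 5.66e-06 and 1.55e-05, edgeR). The gene model of Tbxas1 overlaps Hipk2 on the opposite strand, so reads of the shared stretch cannot be told apart without the strand setting. Taking the summed level of these 3 synthases per kb as the whole, Hpgds made up 63.1% in M0, Tbxas1 56.4% in M2-like and Ptges 92.1% in M1-like cells. These shares depend on the 3 genes chosen, since other prostanoid synthesis genes lie outside that whole. Among those, Ptges3 stood at 19.3, 28.0 and 23.4 CPM per kb in M0, M1-like and M2-like cells, and Ptgis at 4.67, 0.451 and 6.17.

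**Figure D2:**
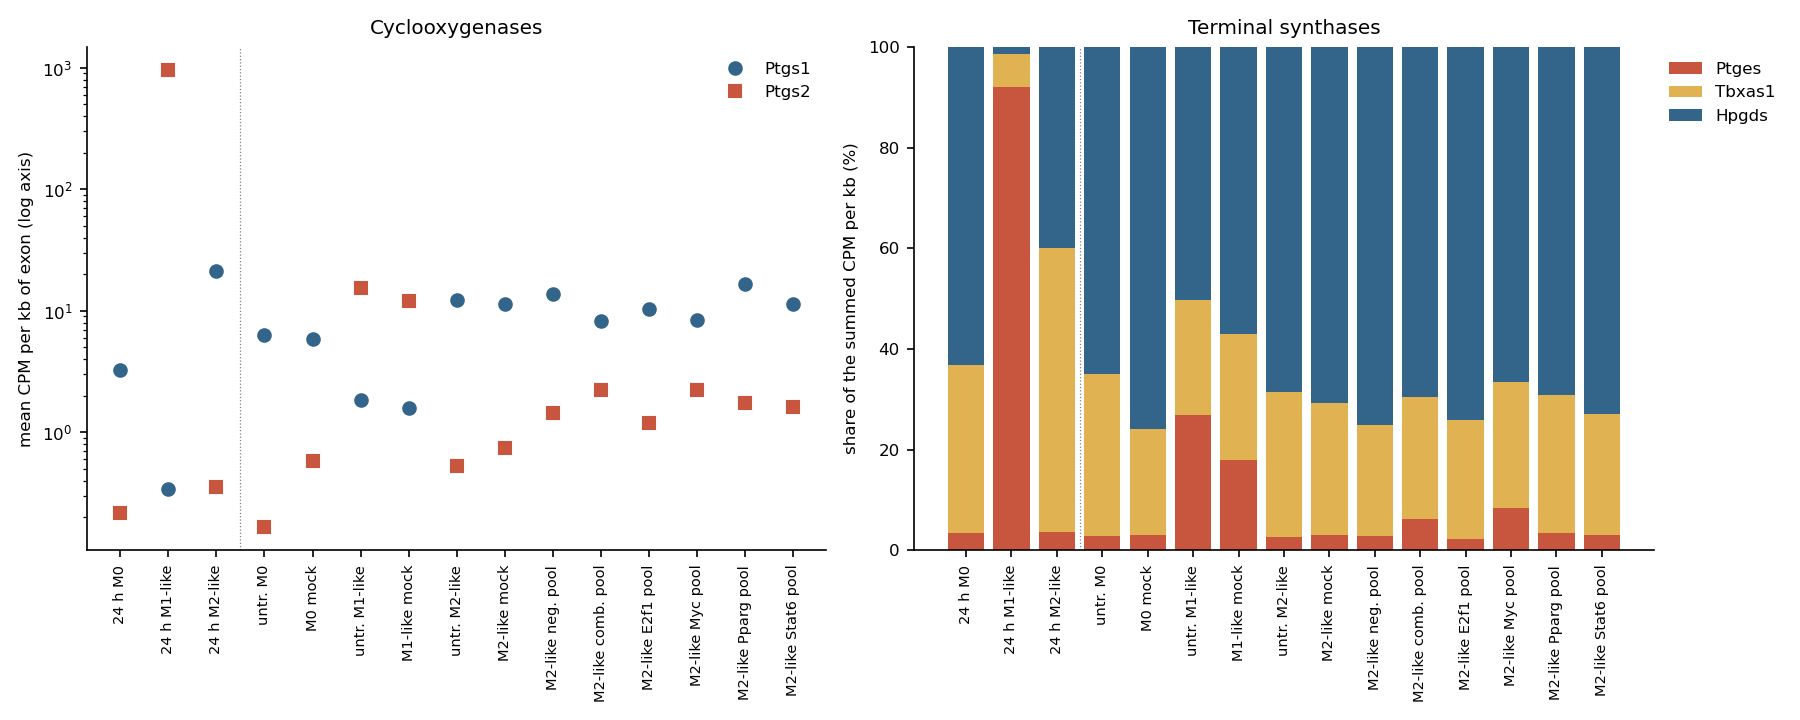
Left, mean level of Ptgs1 and Ptgs2 in CPM per kb of exon (log axis) in each of the 15 conditions, each a mean of 3 replicates. Right, share of Ptges, Tbxas1 and Hpgds in their summed level per kb (%), with the dotted line between the 2 experiments, which were normalized separately. Ptgs2 lies above Ptgs1 in the 3 M1-like conditions and below it in the other 12, and Ptges reaches 92.1% of these 3 synthases in 24 h M1-like cells.

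Alox5ap, Alox5, Ltc4s and Alox15 were all lower in M1-like than in M0 cells. Alox5ap, the activating protein that presents arachidonate to 5-lipoxygenase, stood at 174.3, 179.6 and 190.4 CPM in M0, at 28.55, 24.85 and 30.6 CPM in M1-like and at 87.85, 96.3 and 107.5 CPM in M2-like cells. It fell by 2.70 ± 0.09 with LPS and IFNγ and by 0.90 ± 0.09 with IL4 on the log2 scale (adjusted p = 9.98e-11 and 2.19e-05, edgeR). The 5-lipoxygenase Alox5 itself was low, at 2.94, 2.11 and 2.61 CPM in M0 and 1.83, 1.48 and 2.085 CPM in M2-like cells. In M1-like cells it had 5, 0 and 7 reads (0.135, 0.00 and 0.146 CPM), a log2 fold change against M0 of -4.69 ± 0.39 (adjusted p = 3.76e-07, edgeR).

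Ltc4s, which joins leukotriene A4 to glutathione, stayed below 1.1 CPM everywhere at 24 h and had as few as 5 reads in a mouse. It fell with LPS and IFNγ by 2.32 ± 0.30 and with IL4 by 0.90 ± 0.24 on the log2 scale (adjusted p = 2.25e-05 and 0.017, edgeR). The call with IL4 was lost without the M0 cells of mouse 2 (-0.89, adjusted p = 0.0549) or of mouse 3 (-0.78, adjusted p = 0.0728). The antisense gene Gm26542 overlaps Ltc4s, and the reads of these genes cannot be told apart without the strand setting. Alox15, the 12/15-lipoxygenase, stood at 2.66, 1.04 and 2.11 CPM in M0, at 0.648, 0.919 and 0.520 CPM in M1-like and at 1.92, 1.08 and 1.27 CPM in M2-like cells. It fell with LPS and IFNγ by 1.49 ± 0.36 on the log2 scale (adjusted p = 0.00257, edgeR), and against M2-like cells by 1.03 ± 0.37 (adjusted p = 0.025). The latter call was lost without the M1-like cells of mouse 1 (-0.98, adjusted p = 0.0691) or mouse 3 (-0.83, adjusted p = 0.0989) or the M2-like cells of mouse 1 (-0.77, adjusted p = 0.0882).

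Eosinophils and mast cells also use Alox15, Alox5 and Ltc4s, so their markers are given beside these genes. The 5 eosinophil markers summed to 15.7 to 17.3 CPM in M0, 0.478 to 0.999 CPM in M1-like and 14.2 to 19.1 CPM in M2-like cells, nearly all of it Siglecf (means 16.35, 0.567 and 16.2 CPM), which macrophages can also express. The defining granule genes Epx and Prg2 reached at most 0.018 CPM and 0 reads at 24 h. The 7 mast cell markers summed to 0.848 to 4.62 CPM over the 9 samples. Their part in the result was not tested.

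Of 61 other genes listed by role, which include the noncoding neighbours Ptgs2os and Ptgs2os2, 42 were tested at 24 h. Among the 42, 13 were higher and 22 lower when M1-like was set against M2-like, beside 72.6% of all genes called. Both noncoding neighbours of Ptgs2, already given above, count among the 13. The median log2 fold change of the 42 genes was -0.84 against -0.06 over all genes. Among genes that supply or recycle arachidonate, 3 of 10 were higher and 6 lower. Pla2g16, a phospholipase known from adipose tissue, stood at 211.5 ± 19.4 CPM with LPS and IFNγ and at 5.58 ± 0.10 CPM with IL4 (log2 fold change 5.24 ± 0.09, adjusted p = 4.16e-13, edgeR), whereas Daglb, a diacylglycerol lipase, stood at 11.9 ± 0.8 and 259.7 ± 40.7 CPM (-4.45 ± 0.12, adjusted p = 8.05e-12). The secreted phospholipase Pla2g2d was under 1 CPM in both and lower in M1-like cells (-4.99 ± 0.45, adjusted p = 8.32e-07).

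Of the 6 other prostanoid synthesis genes, LPS and IFNγ left 1 above and 4 below the level reached with IL4. The prostacyclin synthase Ptgis stood at 1.16 ± 0.21 against 15.8 ± 3.0 CPM, the aldose reductase Akr1b3 at 8.43 ± 1.13 against 33.0 ± 3.1 CPM and the carbonyl reductase Cbr1 at 7.01 ± 0.24 against 14.6 ± 0.5 CPM. Among 5 genes of transport and breakdown, 2 were higher and 2 lower. Hpgd, the dehydrogenase that inactivates prostaglandins, stood at 0.040 ± 0.012 against 1.06 ± 0.09 CPM, the reductase Ptgr2 at 27.75 ± 0.56 against 58.5 ± 3.6 CPM and the reductase Zadh2 at 100.5 ± 4.4 against 47.1 ± 4.1 CPM. Adjusted p-values of these 6 genes ran from 2.56e-09 for Ptgis to 4.65e-08 for Cbr1 (edgeR).

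Of 4 prostanoid receptors tested, 2 were higher and 2 lower. The prostacyclin receptor Ptgir stood at 50.9 ± 5.1 CPM with LPS and IFNγ and at 189.8 ± 3.8 CPM with IL4, and the prostaglandin E2 receptor Ptger2 at 12.1 ± 0.4 and 43.9 ± 1.6 CPM, while Ptger1 was at 58.9 ± 2.3 and 43.9 ± 7.0 CPM. All 3 other leukotriene synthesis genes tested were lower, namely Mgst3 (2.65 ± 0.21 against 10.1 ± 1.3 CPM), Mgst2 (0.397 ± 0.166 against 0.883 ± 0.084 CPM) and the leukotriene A4 hydrolase Lta4h (59.9 ± 5.6 against 114.7 ± 6.8 CPM). Of 6 genes listed under leukotriene and lipoxin breakdown, 1 was higher and 4 were lower, among them Cyp4f18, Dpep2 and Ephx2 with log2 fold changes of -3.37 ± 0.27, -1.69 ± 0.07 and -1.64 ± 0.58. Cyp4f18 stood at 0.267 ± 0.026 against 2.75 ± 0.78 CPM and Dpep2 at 39.8 ± 2.3 against 128.1 ± 7.7 CPM. Ephx2 was near the floor, at 0.057 ± 0.018 against 0.183 ± 0.036 CPM.

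Of 6 receptors for leukotrienes, lipoxins and related ligands, 2 were higher and 1 was lower. Fpr2, a formyl peptide receptor that also binds lipoxin A4, stood at 313 ± 31 CPM with LPS and IFNγ and at 0.174 ± 0.131 CPM with IL4 (log2 fold change 10.89 ± 0.22, adjusted p = 1.14e-12, edgeR). The chemerin receptor Cmklr1 stood at 188.8 ± 17.6 against 43.0 ± 1.2 CPM, and the leukotriene B4 receptor Ltb4r1 at 0.217 ± 0.034 against 2.09 ± 0.56 CPM.

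In the reprogramming experiment the untransfected and mock states allow like contrasts to be read in other libraries. These were normalized on their own and are set beside the 24 h values without a test. Mock cells were taken 48 h after transfection and the time of the untransfected cells is not clear. The contrasts may therefore differ from those at 24 h in time as well. Untransfected M1-like against M0 cells differed in 9 of the 10 genes, 3 higher and 6 lower, beside 57.7% of all 14172 genes tested, and mock M1-like against mock M0 cells in 8 genes, 5 higher and 3 lower, beside 60.4%. Untransfected M1-like against M2-like cells differed in 8 genes, 5 higher and 3 lower, beside 61.5%, and the mock states in 7 genes, 4 higher and 3 lower, beside 60.7%. Untransfected M2-like against M0 cells differed in 5 genes, 3 higher and 2 lower, beside 19.9%, and the mock states in 3, all higher, beside 3.84%. Higher in untransfected M2-like cells were Ptgs1, Ptgs2 and Hpgds, and lower were Alox5 and Alox5ap. Hpgds stood there at 234.9 ± 6.4 against 190.7 ± 4.0 CPM in M0, whereas it had fallen with IL4 at 24 h. Pla2g4a and Tbxas1, which rose with IL4 at 24 h, were not called in the untransfected states. Called in mock were Ptgs1, Tbxas1 and Ltc4s, the last having fallen with IL4 at 24 h.

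The prostanoid genes kept their directions between M1-like and M2-like cells, and the differences were smaller than at 24 h except for Tbxas1. Ptgs2 stood at 87.0, 68.1 and 57.7 CPM in untransfected M1-like libraries 1 to 3 and at 66.6, 53.6 and 44.3 CPM in M1-like mock, against 1.79, 4.12 and 1.39 CPM in untransfected M2-like and 2.94, 4.34 and 2.93 CPM in M2-like mock. M1-like mock against M2-like mock gave a log2 fold change of 4.01 ± 0.28 (adjusted p = 6.17e-14, edgeR), beside 11.45 ± 0.27 between the 24 h states. Ptgs1 stood at 7.44, 4.96 and 6.09 CPM in M1-like mock and at 44.5, 47.5 and 39.7 CPM in M2-like mock (-2.84 ± 0.13, adjusted p = 3.13e-18, edgeR), beside -5.98 ± 0.11 at 24 h. Per kb the ratio of Ptgs2 to Ptgs1 was 7.54 in M1-like mock and 0.0658 in M2-like mock.

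Ptges stood at 11.3, 18.7 and 9.69 CPM in M1-like mock and at 5.76, 4.06 and 7.53 CPM in M2-like mock, a log2 fold change of 1.20 ± 0.21 (adjusted p = 1.01e-05, edgeR) beside 6.72 ± 0.19 at 24 h. Pla2g4a differed by 1.81 ± 0.16, Tbxas1 by -1.41 ± 0.07 and Hpgds by -1.65 ± 0.08 on the log2 scale (adjusted p = 1.48e-11, 3.57e-17 and 2.29e-17, edgeR). At 24 h the same genes differed by 2.05 ± 0.11, -1.06 ± 0.05 and -2.72 ± 0.11. Hpgds stood at 64.4 to 74.6 CPM in the 3 M1-like mock libraries, above its 12.3 to 16.2 CPM in the 24 h M1-like mice. It was the most abundant of the 3 synthases per kb in every reprogramming condition, with 50.2% of their sum in untransfected M1-like cells and 57.0 to 75.9% in the other 11.

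The leukotriene genes did not keep the 24 h order. Alox5ap stood at 161.7, 148.6 and 162.7 CPM in M1-like mock and at 125.4, 158.4 and 157.1 CPM in M2-like mock (log2 fold change 0.10 ± 0.11, adjusted p = 0.43, edgeR), whereas it had been lower in M1-like cells at 24 h. Alox5 stood at 2.77, 2.45 and 1.97 CPM in M1-like mock and at 0.448, 1.96 and 0.557 CPM in M2-like mock, higher in M1-like by 1.29 ± 0.48 (adjusted p = 0.0215, edgeR). That call was lost without M1-like mock replicate 1 (1.18, adjusted p = 0.062) or M2-like mock replicate 1 (0.93, adjusted p = 0.129) or 3 (1.02, adjusted p = 0.104). Aloxe3, an epidermal lipoxygenase-type enzyme, stood at 1.24 CPM in M1-like mock and 0.047 CPM in M2-like mock (4.56 ± 0.82, adjusted p = 1.69e-05), and was named after its values were seen.

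**Figure D3:**
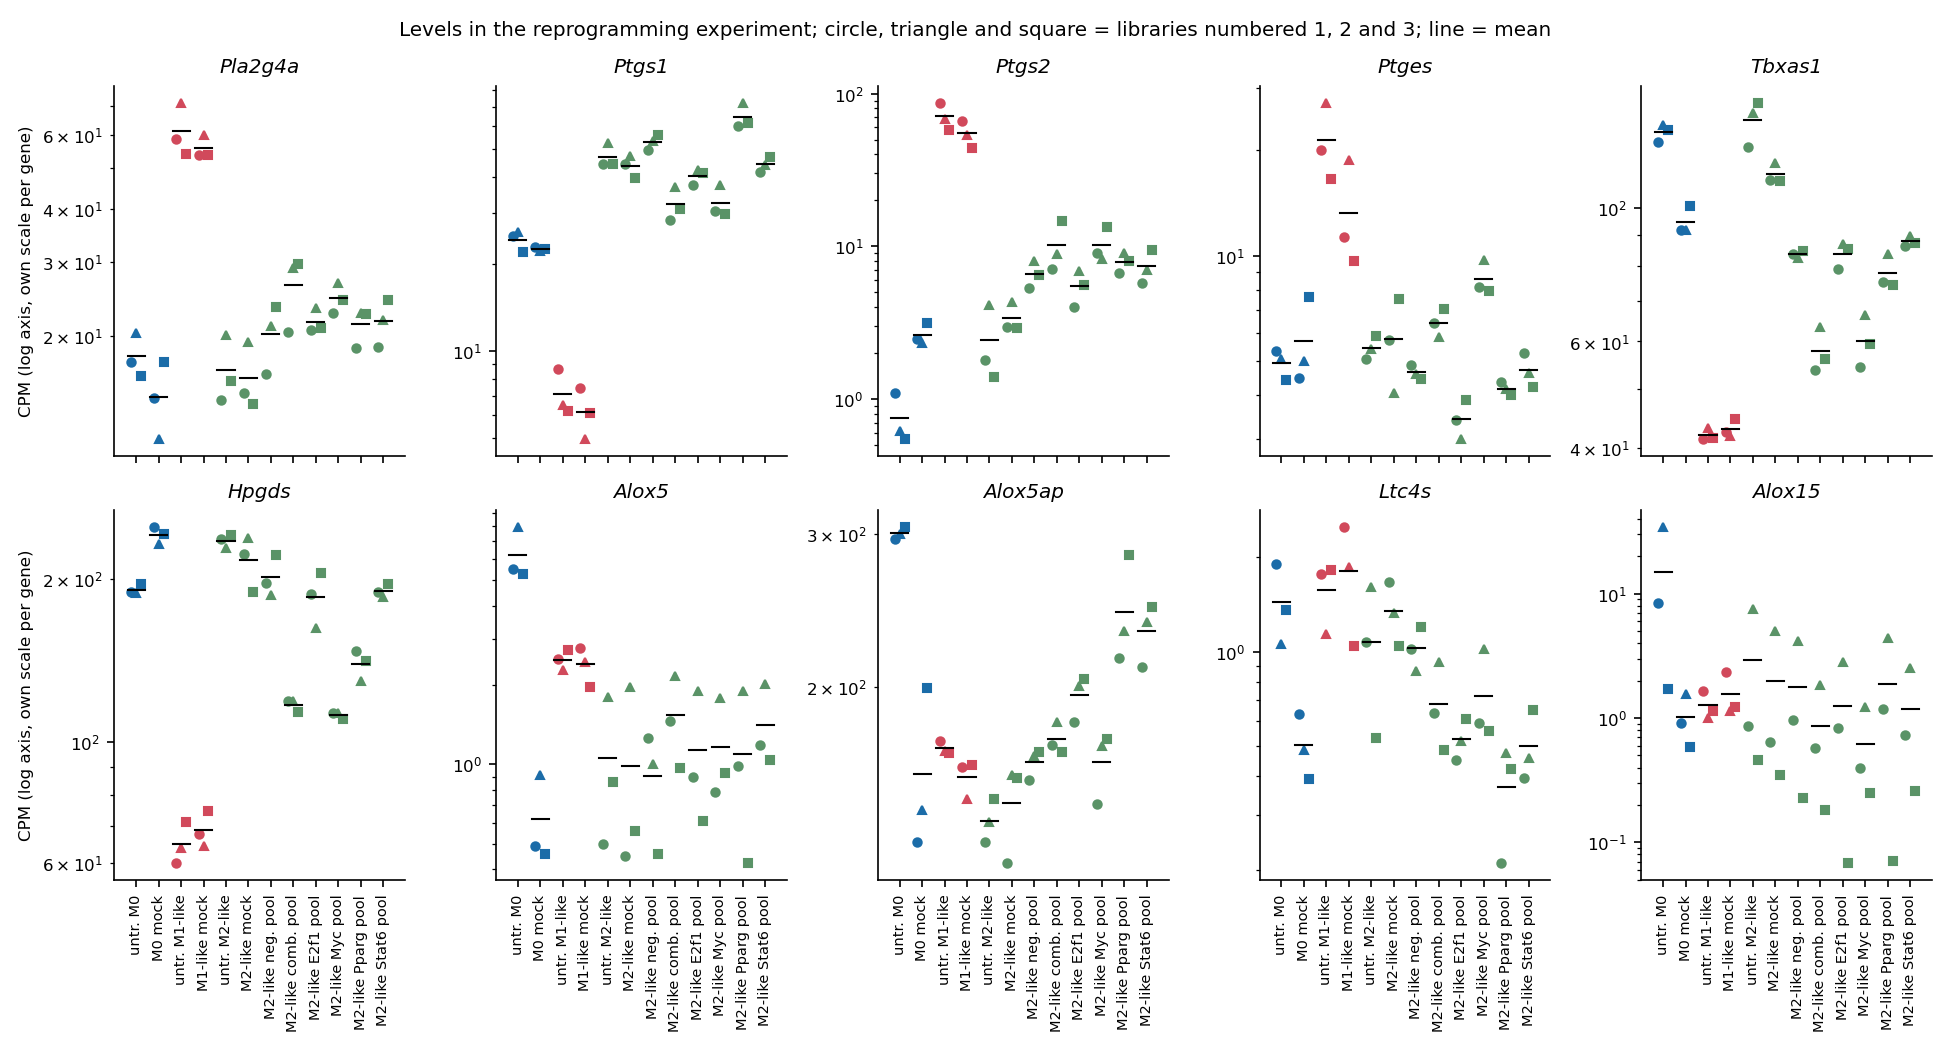
CPM of each gene in the 36 libraries of the reprogramming experiment, with a log axis and its own scale for each gene, and a line at the mean of each condition. Colours mark M0, M1-like and M2-like cells, and circles, triangles and squares the libraries numbered 1, 2 and 3. Alox15 is highest in the library numbered 2 in 10 of 12 conditions.

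Mock and untransfected M0 cells differed in 7 of the 10 genes, 2 higher and 5 lower in mock, beside 20.4% of all genes. Mock cells were taken 48 h after transfection, so the reagent and any difference in culture time cannot be told apart. None of the genes was called between mock and untransfected M1-like cells (edgeR; 1 at an unadjusted p below 0.05, 0 with DESeq2), beside 0% of all genes, and in M2-like cells Tbxas1 was called, lower in mock, beside 1.77%. Alox5 stood at 5.49, 7.94 and 5.25 CPM in untransfected M0 and at 0.490, 0.913 and 0.457 CPM in M0 mock (log2 fold change -3.28 ± 0.48, adjusted p = 4.97e-06, edgeR). Alox5ap stood at 296, 299.5 and 305 CPM against 133, 144 and 199.6 CPM (-0.92 ± 0.11, adjusted p = 1.03e-07). Untransfected M0 was the condition with the highest Alox5, Alox5ap and Alox15 of all 15, by means.

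The other changes in mock against untransfected M0 cells were a fall of Ltc4s by 1.504 ± 0.397, of Tbxas1 by 0.49 ± 0.07 and of Alox15 by 3.83 ± 1.02 and a rise of Ptgs2 by 1.81 ± 0.49 and of Hpgds by 0.34 ± 0.08 on the log2 scale (adjusted p = 0.00606, 3.03e-06, 0.00663, 0.00797 and 0.00262, edgeR). The call of Alox15 was lost without untransfected M0 replicate 2 (-2.27, adjusted p = 0.169). The difference of mock from untransfected cells in M0 minus that in M1-like cells was itself called for 5 genes, 1 higher and 4 lower, beside 9.07% of all genes, and minus that in M2-like cells for 4, 1 higher and 3 lower, beside 5.64%. That in M1-like minus that in M2-like cells was called for none (edgeR; 2 at an unadjusted p below 0.05, 0 with DESeq2), beside 1.13%. Summed over 6 genes, the markers of resident peritoneal macrophages were at 98.9, 124.1 and 68.0 CPM in untransfected M0 and 40.7, 41.5 and 36.3 CPM in M0 mock, although Gata6, also on that list, was at 12.2 ± 3.8 and 19.7 ± 2.8 CPM, and their part in the result was not tested. The 3 untransfected M0 libraries enter these comparisons and that of M2-like with M0 alike.

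Alox15 varied widely between libraries of a condition. It stood at 8.49, 34.35 and 1.704 CPM in untransfected M0 and at 0.858, 7.54 and 0.463 CPM in untransfected M2-like cells, and in the E2f1 pool at 0.834, 2.825 and 0.0679 CPM, the last being 1 read. The library numbered 2 was the highest in 10 of 12 conditions, the exceptions being untransfected M1-like and M1-like mock. Prg4, a marker of resident peritoneal macrophages, was highest there in 11 of 12 conditions and so were Timd4, of the same list, in 11 of 12 and the B cell gene Cd79a in 12 of 12. Gata6, a further resident marker, was highest there in 5 of 12 conditions and Siglecf in 1 of 12. Prg4 stood at 44.7, 62.8 and 24.1 CPM in untransfected M0, at 4.62, 4.67 and 4.24 CPM in M0 mock and at 6.51, 21.45 and 3.77 CPM in untransfected M2-like cells. The 5 eosinophil markers summed to 0.610 to 1.70 CPM in the M1-like libraries and to 9.47 to 46.3 CPM in the others of this experiment, Epx among them reaching at most 0.134 CPM, and the part of these cells in the result was not tested. Without the libraries numbered 2, an alternative added after the data were seen, Alox15 in untransfected M1-like against M0 cells moved from -3.55 ± 0.997 to -1.85 on the log2 scale (adjusted p = 0.00294 and 0.0385, edgeR), and without only untransfected M0 replicate 2 it was not called (-2.01, adjusted p = 0.115).

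**Figure D4:**
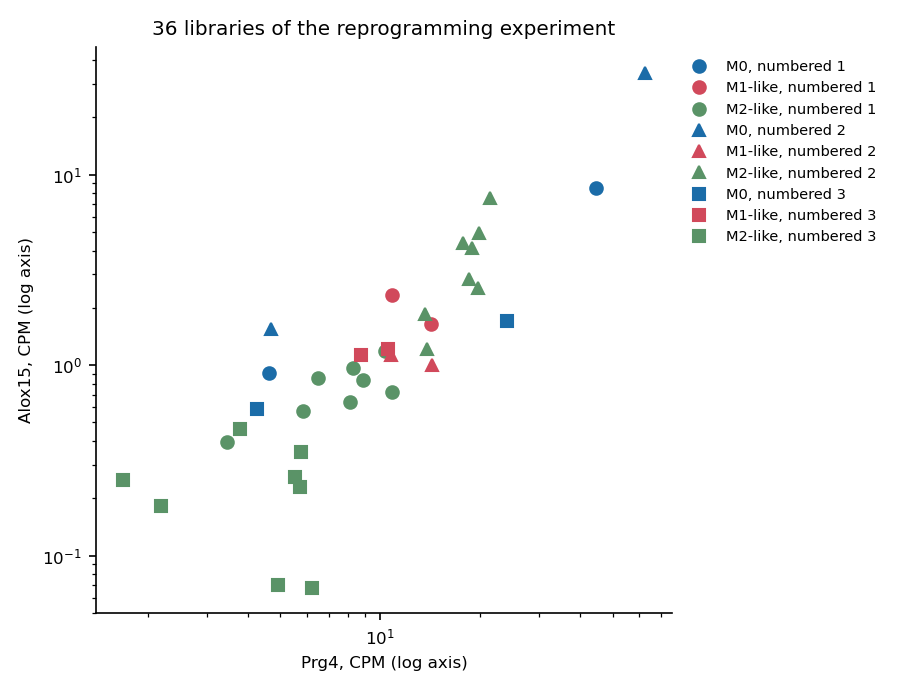
CPM of Alox15 against CPM of Prg4 in the 36 libraries of the reprogramming experiment, both on log axes. Colour gives the polarization state and shape the library number; the triangles (numbered 2) of M2-like cells lie above and to the right of the squares (numbered 3), and untransfected M0 holds the highest values of both genes.

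The knockdowns asked whether loss of E2f1, Myc, Pparg and Stat6 moves M2-like cells towards the M1-like state. Against the negative siRNA pool, 3 of the 10 genes were lower and none was higher with the combined pool, beside 26.5% of all genes. The Myc pool moved 4 genes, 1 higher and 3 lower, beside 29.6%, the Pparg pool 3, 1 higher and 2 lower, beside 5.74%, and the Stat6 pool 1, higher, beside 1.51%. The E2f1 pool moved none (edgeR; 3 at an unadjusted p below 0.05, and 1, Ptgs1, with DESeq2), beside 0.91%. These 5 comparisons share the negative-pool libraries, and the combined pool contains the siRNAs of the others.

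**Figure D5:**
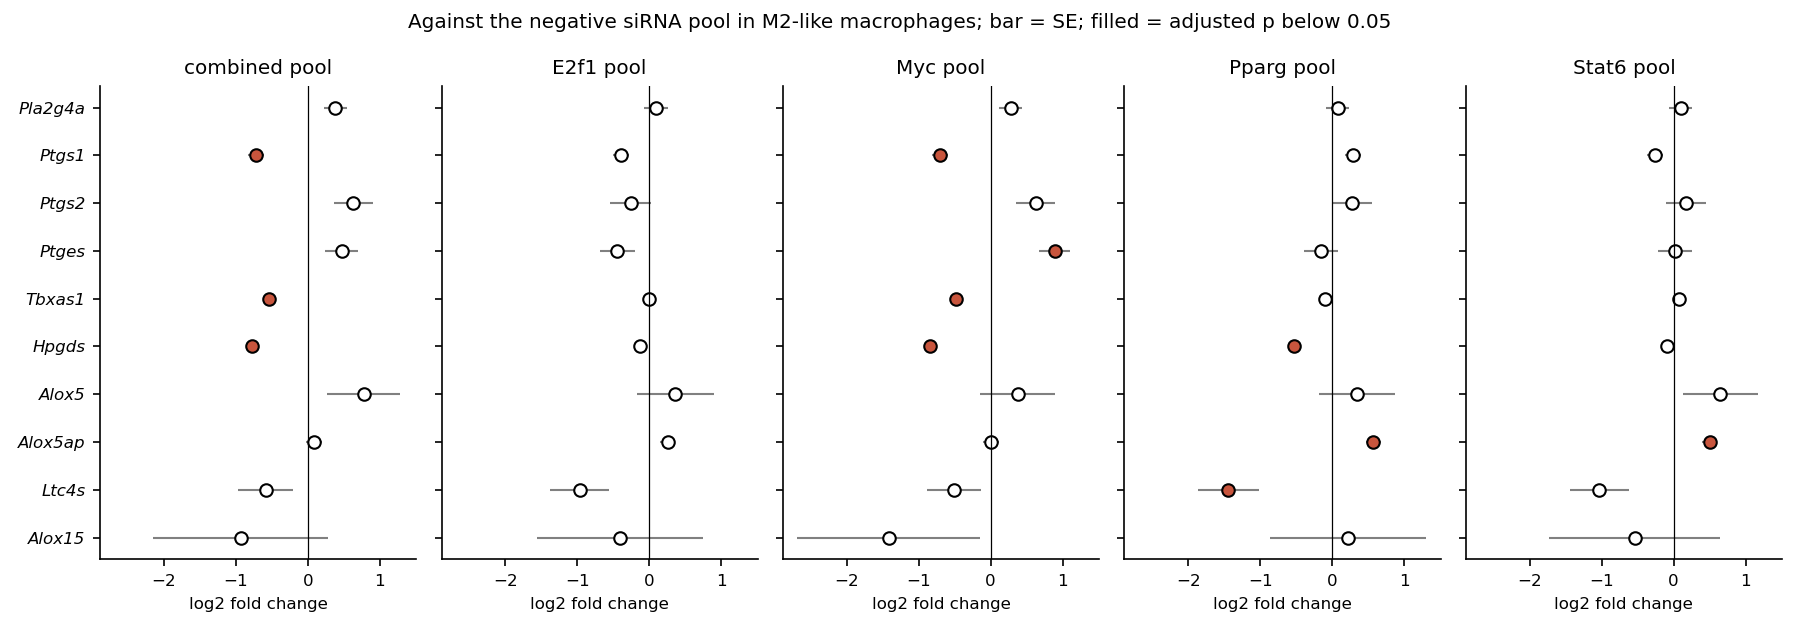
Log2 fold change of each gene in M2-like cells given the combined, E2f1, Myc, Pparg or Stat6 siRNA pool against the negative pool (3 libraries each), with bars for the standard error. Filled points have an adjusted p below 0.05. Ptgs1, Tbxas1 and Hpgds lie left of zero and filled in the combined and Myc pools.

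The genes that fell with the combined pool, Ptgs1, Tbxas1 and Hpgds, also lay below the M2-like level in M1-like mock cells. Ptgs1 stood at 28.5, 37.15 and 31.1 CPM with the combined pool, at 30.6, 37.6 and 29.8 CPM with the Myc pool and at 49.7, 53.5 and 56.0 CPM with the negative pool. Neither pool overlapped the negative pool, with log2 fold changes of -0.72 ± 0.11 and -0.70 ± 0.11 (adjusted p = 1.41e-05 and 1.62e-05, edgeR). Hpgds stood at 119, 119 and 113 CPM with the combined pool and 197, 186.5 and 221 CPM with the negative pool (-0.78 ± 0.08, adjusted p = 1.39e-08), and with the Myc pool at 110.4 to 113.3 CPM (-0.84 ± 0.08, adjusted p = 3.27e-09). Tbxas1 stood at 53.8, 63.4 and 56.1 CPM with the combined pool and 84.0, 82.4 and 84.9 CPM with the negative pool (-0.54 ± 0.07, adjusted p = 1.04e-06), with -0.48 ± 0.07 for the Myc pool (adjusted p = 5.27e-06).

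On the inducible side, Ptgs2 stood at 7.12, 8.85 and 14.7 CPM with the combined pool, at 9.07, 8.23 and 13.4 CPM with the Myc pool and at 5.29, 8.07 and 6.46 CPM with the negative pool. The log2 fold changes were 0.64 ± 0.27 and 0.63 ± 0.27 (adjusted p = 0.0811 and 0.0765, edgeR), and the first was called without combined-pool replicate 1 (0.83, adjusted p = 0.0338). Against M2-like mock instead, at 2.94, 4.34 and 2.93 CPM, Ptgs2 rose by 1.59 ± 0.30 with the combined pool (adjusted p = 8.23e-05), and the negative pool itself was 0.95 ± 0.32 above mock (adjusted p = 0.0463). That last call was lost without M2-like mock replicate 1 (0.86, adjusted p = 0.152) or 3 (0.86, adjusted p = 0.166) or negative-pool replicate 2 (0.79, adjusted p = 0.181) or 3 (0.97, adjusted p = 0.0932). Ptges rose with the Myc pool, to 8.14, 9.71 and 7.94 CPM from 4.87, 4.6 and 4.46 CPM (0.89 ± 0.22, adjusted p = 0.00221), and the combined pool, at 6.42, 5.865 and 7.05 CPM and without overlap with the negative pool, gave 0.47 ± 0.23 (adjusted p = 0.123). The difference between these pools was not tested.

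The Pparg pool gave another pattern. Hpgds stood at 147, 129 and 141 CPM and fell by 0.53 ± 0.08 on the log2 scale (adjusted p = 4.89e-05, edgeR), while Ptgs1 at 60.2, 72.5 and 61.5 CPM was not called against the negative pool (0.29 ± 0.11, adjusted p = 0.124) but was higher than in M2-like mock (0.56 ± 0.11, adjusted p = 0.000368). Alox5ap rose to 216, 232 and 284 CPM from 156, 167 and 168.5 CPM (0.58 ± 0.11, adjusted p = 0.00078), and with the Stat6 pool to 211, 237 and 247 CPM (0.50 ± 0.11, adjusted p = 0.0103). The Stat6 call was lost without Stat6-pool replicate 2 (0.49, adjusted p = 0.0557) or 3 (0.45, adjusted p = 0.066) or negative-pool replicate 1 (0.47, adjusted p = 0.0667). Ltc4s fell with the Pparg pool by 1.44 ± 0.43 from 1.03 CPM (adjusted p = 0.0409), a call lost in each of the 6 fits without 1 library (-1.69 to -1.19, adjusted p 0.0543 to 0.154).

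With M2-like mock as the reference, the negative pool moved 2 of the 10 genes, Ptgs2 higher and Tbxas1 lower, beside 11.7% of all genes. The combined pool moved 6, 2 higher and 4 lower, beside 37.1%, the Myc pool 6, 3 in each direction, beside 38.7%, and the Pparg pool 6, 3 in each direction, beside 17.3%. The E2f1 pool moved 4, 1 higher and 3 lower, beside 11.6%, and the Stat6 pool 4, 2 in each direction, beside 11.5%. Tbxas1 was lower than in mock with all 5 targeting pools and with the negative pool, which stood at 84.0, 82.4 and 84.9 CPM against 111, 118 and 111 CPM in mock (-0.44 ± 0.07, adjusted p = 4.59e-05, edgeR). Tbxas1 was also lower in M2-like mock than in untransfected M2-like cells (-0.30 ± 0.07, adjusted p = 0.0116), a call lost without M2-like mock replicate 1 (-0.29, adjusted p = 0.0633) or 3 (-0.28, adjusted p = 0.0759) or untransfected M2-like replicate 2 (-0.28, adjusted p = 0.0716) or 3 (-0.25, adjusted p = 0.152).

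Against M1-like mock, the combined pool still differed in 7 of the 10 genes, 3 higher and 4 lower, beside 52.9% of all genes. Ptgs1 was 5.25 times its M1-like mock level (log2 fold change 2.39 ± 0.13, adjusted p = 6.22e-16, edgeR) and Hpgds 1.70 times (0.77 ± 0.08, adjusted p = 3.04e-09). Ptgs2 was lower by 2.42 ± 0.24 and Pla2g4a by 1.08 ± 0.15 on the log2 scale (adjusted p = 4.25e-10 and 3.41e-07). Per kb the ratio of Ptgs2 to Ptgs1 was 0.269 with the combined pool, 0.105 with the negative pool and 7.54 in M1-like mock. The summed level of the 5 LPS and IFNγ response genes was 33.2 to 48.7 CPM with the combined pool, 13.1 to 15.7 CPM with the negative pool and 503 to 649 CPM in M1-like mock.

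Of the 43 other listed genes tested in this experiment, Ptgs2os2 among them, 6 rose and 12 fell with the combined pool against the negative pool, beside 26.5% of all genes called. Fpr2 stood at 3.62 ± 2.10 CPM against 0.226 ± 0.146 CPM (log2 fold change 3.98 ± 0.86, adjusted p = 0.000704, edgeR), with 14.8 ± 7.4 CPM in M1-like mock. Mgst2, a microsomal glutathione transferase that can also make leukotriene C4, stood at 3.54 ± 0.09 CPM against 0.7645 ± 0.190 CPM (2.19 ± 0.31, adjusted p = 2.13e-06). The prostaglandin E2 receptor Ptger3 was at 0.200 ± 0.048 CPM against 0.763 ± 0.324 CPM (-1.90 ± 0.60, adjusted p = 0.0184), and 0.248 ± 0.035 CPM in M2-like mock. Ptgs2os2 stood at 0.353 CPM with the combined pool and 0.166 CPM with the negative pool (1.09 ± 0.64, adjusted p = 0.223), and Ptgs2os had no library above 0.163 CPM among the mock, negative and combined conditions.

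Over all 15 conditions, the means of Ptgs2 ran from 0.754 CPM in untransfected M0 to 4402 CPM in 24 h M1-like cells, those of Ptges from 3.42 CPM in the E2f1 pool to 536 CPM and those of Pla2g4a from 14.3 CPM in M0 mock to 127 CPM in the same 24 h M1-like cells. Ptgs1 ran from 1.32 CPM in 24 h M1-like to 82.7 CPM in 24 h M2-like cells, with 7 of its 14 neighbouring pairs in this order free of overlap. For Hpgds 6 of 14 neighbouring pairs did not overlap, for Tbxas1 6, for Ptges and Alox5ap 4, for Ptgs2, Pla2g4a and Alox5 2, and for Ltc4s and Alox15 none. Overlap was judged by the lowest and highest replicates of conditions sorted by mean. Differences between neighbours in these orders were not tested. The 24 h means and the others were normalized separately.

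The genes most like each member over the 12 condition means of the reprogramming experiment were taken by Pearson's r of log2 CPM among 10282 protein-coding genes, as a description. The pattern of Ptgs2 was nearest to P4ha1 (r = 0.99), Tyw5 (0.989) and Nampt (0.988), and that of Ptgs1 to Clec4a3 (0.982), Sat1 (0.979) and the mannose receptor Mrc1 (0.978). Pla2g4a was nearest to Amz2 (0.986), Katna1 (0.985) and Usp39 (0.985), Ptges to Slc15a2, Pola2 and Snapc4 (each 0.957), Tbxas1 to Vwf (0.995), Ucp2 (0.993) and Mxd4 (0.985), and Hpgds to Tmem65 (0.991), Rpl10-ps3 (0.99) and Cerk (0.987). Rpl10-ps3 is a ribosomal protein gene copy whose count may hold reads of near-identical copies. Alox5 was nearest to Arhgdib (0.96), H6pd (0.929) and Parn (0.913), Alox5ap to L1cam (0.861), Ahsa1 (0.85) and Ppp1r13b (0.83), Ltc4s to Tfb1m (0.965), Tob1 (0.952) and Fam151b (0.936), and Alox15 to Lyz1 (0.922), Slc41a3 (0.92) and Mgst3 (0.917). The 12 points share libraries, library numbers and the polarization contrast.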

How the data were processed

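RNA-seq was measured in 54 libraries, 18 of the 24 h experiment and 36 of the reprogramming experiment. Per the labels and the study's methods the authors trimmed reads with Trimmomatic, aligned them with TopHat2 to mm10 and counted reads per gene with featureCounts; the deposited values are raw counts per Ensembl gene, and versions, annotation, strand setting and handling of multi-mapping reads are not given in the sources used here. Technical libraries of a mouse (chi-square per gene 1.07 to 1.10, against 3.64 to 52.1 between mice) were summed. Symbols, positions and exon lengths came from GENCODE M21 (37693 of 39179 identifiers matched).

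Each experiment was fitted with edgeR 4.0.16 in R 4.3.3 (TMM scaling, filterByExpr with a minimum count of 10 and a minimum total of 15, a coefficient per condition, quasi-likelihood F test, Benjamini-Hochberg adjustment over all genes tested, threshold 0.05). SE is the absolute log2 fold change divided by the square root of F. Tables and plots were made with Python 3.11.15. The fits were tested on simulated counts with 200 genes changed by known folds. In the 24 h experiment equal numbers mark the same mouse: median correlation of deviations 0.281 within and -0.147 between mice, and the replicate block, the paired fit, called the same 10, 6 and 10 members. Alternatives were DESeq2 1.42.0, RLE scaling, other filters, the block, fits of the compared groups alone, a fold of at least 2, the first technical library and leaving out libraries.

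The members, gene lists and comparisons were chosen with earlier results of these data known. Named were all members, up to 3 called genes per role with the largest change in 24 h M1-like against M2-like cells, the 3 called pathway genes with the largest change for the combined against the negative pool, the noncoding neighbours of Ptgs2 and the 3 genes most like each member with a mean log2 CPM (prior count 2) of at least 1.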

Additional observations from a re-analysis of the deposited data

Results flagged for a closer look

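The difference of mock from untransfected cells, in which the reagent and any difference in culture time cannot be told apart, was not the same in all polarization states by a test of the difference itself in edgeR. The difference in M0 minus that in M1-like cells was 2.18 ± 0.54 (SE) on the log2 scale for Ptgs2 (adjusted p = 0.00721), -0.53 ± 0.10 for Tbxas1 (adjusted p = 0.000657), -3.22 ± 0.65 for Alox5 (adjusted p = 0.00101), -0.81 ± 0.15 for Alox5ap (adjusted p = 0.00047) and -1.70 ± 0.51 for Ltc4s (adjusted p = 0.0313). The difference in M0 minus that in M2-like cells was 0.46 ± 0.11 for Hpgds (adjusted p = 0.0129), -3.15 ± 0.75 for Alox5 (adjusted p = 0.00864), -0.98 ± 0.15 for Alox5ap (adjusted p = 0.000109) and -1.83 ± 0.54 for Ltc4s (adjusted p = 0.0369). Both differences were chosen after the data were seen. Of the calls against M2-like cells, that of Hpgds was lost without M2-like mock replicate 3 (0.37, adjusted p = 0.0524) and that of Alox5 without M2-like mock replicate 2 (-2.20, adjusted p = 0.144), and those of Ltc4s were lost in several fits without 1 library (adjusted p up to 0.101 and 0.113).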

How the results depend on the processing

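No member that was called in the main fit or in an alternative had opposite directions in the 2 fits. Changes of sign in members called in neither fit were not counted. Requiring a fold of at least 2 lowered the members called in 24 h M2-like against M0 from 6 to 1, in untransfected M2-like against M0 from 5 to 3, in M2-like against M0 mock from 3 to 1, in M0 mock against untransfected from 7 to 4, in M2-like mock against untransfected from 1 to 0 and in the negative pool against mock from 2 to 0. Against mock it left 1 for the combined, E2f1 and Myc pools and 2 for the Pparg and Stat6 pools, against the negative pool 0 for the combined, Myc and Stat6 pools and 1 for Pparg, and 3 and 2 for the mock difference in M0 minus that in M1-like and in M2-like cells. With at least 10 counts in every library, 3 were called in untransfected M2-like against M0, 5 in M1-like against M0 mock, 3 in M0 mock against untransfected, 1 for the negative and 2 for the Stat6 pool against mock, and 3 and 2 for the M0 mock difference minus the others. Without the libraries numbered 2, chosen after seeing the data, the counts were 1 in M2-like against M0 mock, 0 in M2-like mock against untransfected, 1 for the negative and 2 for the E2f1 pool against mock, 0 for Stat6 against the negative pool, and 3 and 2 for the M0 mock difference minus the others. Fitting only the compared groups gave 1 in M2-like against M0 mock, 0 in M2-like mock against untransfected and 2 for E2f1 against the negative pool. With no expression filter the counts were 1 in M1-like mock against untransfected, 5 and 1 for the combined and E2f1 pools against the negative pool and 1 for the M1-like minus the M2-like mock difference. RLE scaling gave 1 for the negative pool against mock, and DESeq2 gave 1 for E2f1 against the negative pool. The cause was not tested.

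Leaving out 1 library at a time gave 10 to 10, 5 to 7 and 9 to 10 members in the 24 h comparisons of M1-like with M0, M2-like with M0 and M1-like with M2-like. The untransfected states gave 8 to 9, 4 to 5 and 6 to 8 and the mock states 8 to 8, 1 to 3 and 6 to 7. Mock against untransfected gave 6 to 7 in M0, 0 to 0 in M1-like and 0 to 1 in M2-like cells. Against mock the range was 1 to 2 for the negative, 5 to 6 for the combined, 1 to 5 for the E2f1, 5 to 7 for the Myc, 6 to 7 for the Pparg and 2 to 5 for the Stat6 pool. Against the negative pool it was 3 to 5, 0 to 0, 4 to 4, 2 to 2 and 0 to 1 in the order combined, E2f1, Myc, Pparg and Stat6, and 7 to 7 for the combined pool against M1-like mock. The differences between states in the mock difference gave 0 to 1 (M1-like minus M2-like), 4 to 6 (M0 minus M1-like) and 2 to 4 (M0 minus M2-like).

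In the reprogramming experiment equal numbers are not stated to mark a shared mouse, and deviations of equally numbered libraries correlated with a median of 0.169 and a minimum of -0.228, with 34 of 36 libraries nearest to their own number. With the replicate block 1 member was called for E2f1 against the negative pool and 1 for the M1-like minus the M2-like mock difference, instead of 0, and 7 instead of 5 for the M0 minus the M1-like and 6 instead of 4 for E2f1 against mock. In untransfected M2-like against M0 it called 6 instead of 5, adding Alox15 (-2.27, adjusted p = 0.000666, edgeR). Ltc4s, Alox15 and Alox5 had as few as 3, 1 and 0 reads in a library, which limits how finely their changes can be read.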
